A study of Mus musculus with 12 samples.

Results

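B16F10 melanoma cells were compared after growth in medium from tumour-conditioned macrophages (the TAM group) and in medium from untreated macrophages (the M0 group). B16F10 is a mouse melanoma line, labelled wild type, and all cells were kept in macrophage medium for 24 h before their RNA was sequenced. The macrophages were derived from mouse bone marrow and had been treated for 24 h before that. M0 macrophages had received control medium. TAM macrophages had received 75% medium conditioned by B16F10 cells, and the name follows the term tumour-associated macrophage. The comparison was defined by the sample labels alone and used 6 of the 12 libraries, 3 TAM and 3 M0, across all expressed genes. The title of TAM replicate 2 gives the line that conditioned its macrophages as B16F107, and the library was placed by its treatment label, which is that of the other TAM libraries. The other 6 libraries, from cells in medium of M1 macrophages (20 ng/ml of the cytokine written INF-γ, read here as interferon gamma) and M2 macrophages (20 ng/ml IL-4), entered the fit to estimate the spread between replicates. Of 55487 genes in the table, 14591 were abundant enough to be tested.

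No group with tumour medium but without macrophages was among the 12 samples, and no label states that the tumour medium was taken off before macrophage medium was harvested. Products of the macrophages and tumour medium carried over therefore cannot be told apart in what follows. Whether the 3 libraries in each group were grown as separate cultures is not labelled. The p-values reflect only how far these libraries differ among themselves, which may be technical. These are bulk RNA measurements, in which fewer cells of a kind and less RNA per cell cannot be told apart.

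Tumour cells and macrophages exchange signals through what they release into the medium, and also compete for what the medium contains. Cells that run short of amino acids, or that fill their endoplasmic reticulum with unfolded protein, activate the integrated stress response, in which phosphorylation of the translation factor eIF2 lowers protein synthesis while the transcription factor ATF4 is made and switches on genes for amino acid supply. Cholesterol supply is set by SREBP transcription factors, which are released from the endoplasmic reticulum when sterols are low and switch on genes of cholesterol synthesis and uptake. Dividing cells switch on replication genes through E2F factors and mitotic genes through the cell cycle homology region of their promoters. Many genes of all 3 systems differed between the groups, and stretches of their promoters are shown here because they hold the letters these factors are known to read.

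The sequences are RefSeq promoters (GRCm38.p6), printed 5′ to 3′ on the gene's strand and restricted to bases before the start of transcription. In the first set, capitals mark the letters TGATGNAAN on either strand, the composite site bound by ATF4 with C/EBP partners. All 8 genes shown were higher in TAM, but they were picked with their changes known, so their shared direction is no result. Slc7a11, which encodes the cystine importer subunit xCT, holds 2 such sites.
Fgf21 (chr7:45615592-45615660, minus strand): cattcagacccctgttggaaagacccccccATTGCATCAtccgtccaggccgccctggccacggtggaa
Chac1 (chr2:119351018-119351086, plus strand): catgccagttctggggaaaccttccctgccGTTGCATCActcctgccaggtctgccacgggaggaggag
Atf3 (chr1:191183406-191183474, minus strand): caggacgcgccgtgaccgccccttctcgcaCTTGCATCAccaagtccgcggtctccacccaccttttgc
Vldlr (chr19:27216789-27216857, plus strand): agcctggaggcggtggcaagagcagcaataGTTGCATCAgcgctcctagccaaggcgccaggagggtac
Nupr1 (chr7:126625543-126625611, minus strand): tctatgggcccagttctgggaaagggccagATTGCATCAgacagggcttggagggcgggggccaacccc
Asns (chr6:7693210-7693262, minus strand): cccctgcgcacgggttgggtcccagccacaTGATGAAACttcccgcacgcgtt
Slc7a11 (chr3:50443623-50443709, minus strand): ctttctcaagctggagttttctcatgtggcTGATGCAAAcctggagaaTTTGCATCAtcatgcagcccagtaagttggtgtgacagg
Hrk (chr5:118169620-118169688, plus strand): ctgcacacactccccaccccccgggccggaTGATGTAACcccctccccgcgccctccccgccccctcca

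Among genes with a promoter in the table, these letters were in 6 of 20 integrated stress response regulators, 3 of 17 genes of amino acid synthesis, 2 of 13 amino acid transporters and 5 of 12 cytosolic tRNA synthetases, counted over the whole window from 250 bases before to 50 after the start. They were in 4.50% of all 27025 genes in the promoter table and in 2.78% of the 10128 tested genes found there. Of the 2482 genes there that rose 4.19% held them, and of the 2939 that fell 2.01%. A match describes the letters only and does not show that a factor was bound.

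In the second set, capitals mark the E2F letters TTTGGCGC in Mcm6 and TTTCGCGC in Orc1 and Rfc3, 3 genes of DNA replication, and the letters TTTGAA in 4 mitotic genes, on either strand. Mcm6 holds 2 matches, of which 1 shares 4 bases with a match to TTTCGCGC. All 7 genes were lower in TAM, but they too were picked with their changes known.
Mcm6 (chr1:128359715-128359845, minus strand): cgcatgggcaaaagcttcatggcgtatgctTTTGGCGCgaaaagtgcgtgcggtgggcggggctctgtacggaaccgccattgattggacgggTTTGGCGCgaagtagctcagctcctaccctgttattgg
Orc1 (chr4:108579397-108579453, plus strand): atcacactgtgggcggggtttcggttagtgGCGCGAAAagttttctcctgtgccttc
Rfc3 (chr5:151651209-151651248, minus strand): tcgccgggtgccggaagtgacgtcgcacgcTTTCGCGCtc
Cdc20 (chr4:118437344-118437391, minus strand): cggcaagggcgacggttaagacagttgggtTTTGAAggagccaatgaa
Ube2c (chr2:164769870-164769928, plus strand): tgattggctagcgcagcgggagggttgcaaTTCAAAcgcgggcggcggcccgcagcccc
Kif11 (chr19:37376333-37376381, plus strand): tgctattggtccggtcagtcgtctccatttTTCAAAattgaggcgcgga
Cdk1 (chr10:69352913-69353013, minus strand): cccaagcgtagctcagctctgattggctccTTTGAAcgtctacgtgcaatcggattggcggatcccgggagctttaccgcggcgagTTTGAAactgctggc

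The letters TTTCGCGC were in 6 of 32 replication genes with a promoter in the table, against 0.374% of all genes there and 0.741% of tested genes, and TTTGGCGC in 5 of 32, against 0.585% and 1.05%. TTTGAA was in 23 of 33 mitotic genes, against 20.2% of all genes and 14.4% of tested genes. CCAAT was in 26 of 33 mitotic genes and in all 9 genes of the sterol arm of cholesterol synthesis that have a promoter in the table, against 41.1% of all genes and 43.2% of tested genes. The sterol response element core, TCACNCCAC on either strand and in capitals here, was found upstream of Hmgcs1, an enzyme near the start of the mevalonate arm, which was lower in TAM.
Hmgcs1 (chr13:119690184-119690252, plus strand): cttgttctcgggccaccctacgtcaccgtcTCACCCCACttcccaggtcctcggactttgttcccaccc
These core letters were in 1 of 7 genes of the mevalonate arm and 0 of 9 of the sterol arm, against 1.44% of all genes. The lack of a match says only that these letters are not in this window.

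Totals were 15916756 to 20863973 counts per library among the 6 libraries compared. M0 replicate 1 stood apart from the other 11 libraries. Across genes, Pearson's r between it and M0 replicates 2 and 3 was 0.945 and 0.948, while r was 0.993 between those 2 and among the TAM libraries. Its share of counts on ribosomal protein genes was 7.78%, and that of the other 11 ran from 3.50% to 4.11%. Its mean exon length, weighted by counts, came to 4545 bp, below the 5817 to 6090 bp of the rest. The fitted common dispersion, which measures the squared relative spread between replicates, was 0.0324 with it and 0.00166 without it. Counts for gene lists are also given without this library where the number higher or lower moved by over 1.5 times and by at least 3 genes. Genes with many near-identical copies, such as Tubb5, Eno1, Pkm, Ldha, Hspa8 and those of ribosomal proteins, are uncertain, since how shared reads were counted is not stated.

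Levels are given in CPM, a gene's counts relative to the TMM-scaled total of its library, in the order of replicates 1, 2 and 3. Changes are TAM minus M0 on the log2 scale with their standard error (SE), from a quasi-likelihood fit in edgeR, and a gene is said to rise, fall or change only where the Benjamini-Hochberg adjusted p over all tested genes was under 0.05. By that rule 7372 genes changed, 50.5% of those tested, 3398 of them higher in TAM (23.3%) and 3974 lower (27.2%). Changes of at least 2-fold were found in 1672 genes that rose and 1774 that fell, and of at least 4-fold in 502 and 411. Without M0 replicate 1, 9983 of 14968 genes changed (66.7%), 4946 higher (33.0%) and 5037 lower (33.7%), and 7145 of the 7372 genes changed again in the same direction. The median change over all tested genes was −0.02. When only the 6 libraries of M0 and TAM were fitted, 4619 genes were called, and 18 genes named here kept their direction but no longer passed (adjusted p 0.0534 to 0.170): Atf4, Atr, Bst2, Ccnd1, Cd274, Ctps, Eif2ak1, Ggps1, Kif11, Map1lc3b, mt-Co1, Nrg2, P4ha1, Pdgfrb, Rpl7l1, Sox6, Tgfbr2 and Trp53. Of these, Ctps, Eif2ak1, Kif11, Map1lc3b, Nrg2, Pdgfrb, Tgfbr2 and Trp53 also lost the call without 1 of the other libraries. A gene list in which about 23.3% of the members rose and 27.2% fell would match this background. Without M0 replicate 1 the matching shares are 33.0% and 33.7%. The lists and their members were chosen with earlier results of these data known. Their counts and medians therefore describe the lists and are no independent test of them. All TAM libraries lay above all M0 libraries in 29.9% of the tested genes and below them in 29.0%, 58.9% in all, so a gene whose groups do not overlap is common here.

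**Figure D1:**
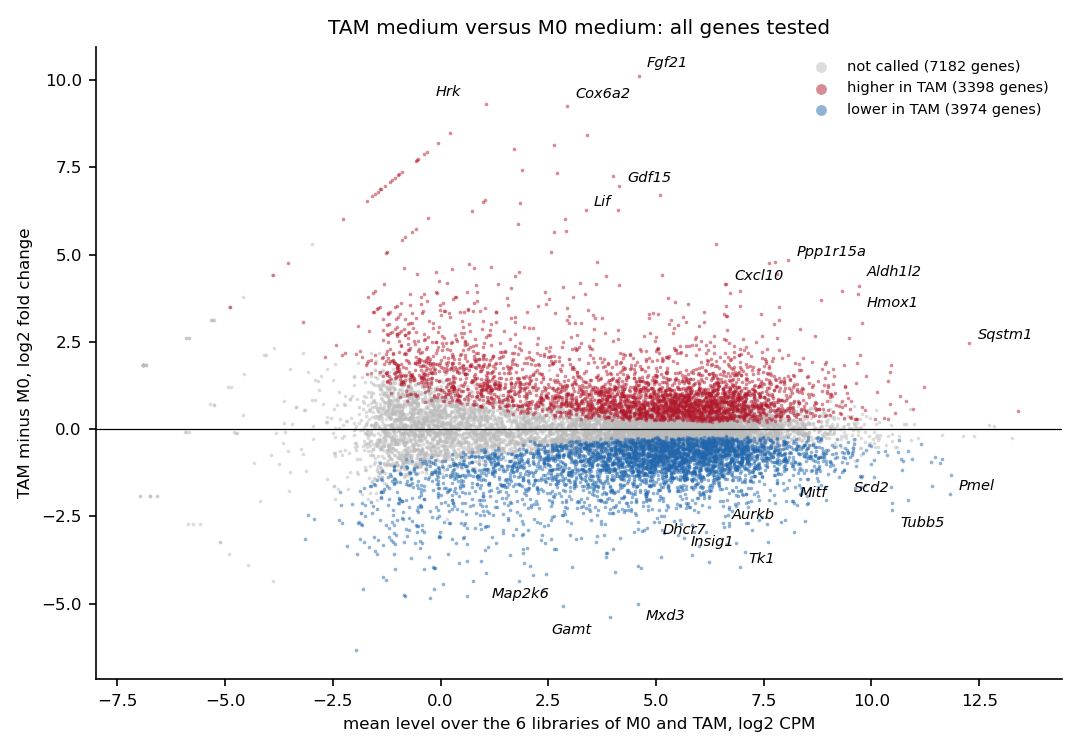
All tested genes with a count in the 6 libraries, with the mean level in log2 CPM on the horizontal axis and the log2 fold change of TAM over M0 on the vertical axis. Red points (3398) were higher in TAM, blue points (3974) lower and grey points did not pass the test. The rises reach 10.13 at Fgf21 and the falls among the named genes −5.38 at Gamt, and diagonal rows at the upper left are genes with no count in M0, whose fitted change is not a bound.

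The largest rises, among genes with a mean of at least 1 CPM and without predicted genes, were in genes that were all but absent in M0. Fgf21, a secreted hormone of metabolic stress (chr7:45613886-45615490, minus strand, mm10), was at 0.112, 0 and 0 CPM in the M0 libraries and at 50.4, 47.8 and 47.0 CPM in the TAM libraries. Its 2861 counts in TAM against 2 in M0 are a 1325-fold ratio (95% counting interval 367 to 10948). Hrk, a BH3-only gene that promotes cell death (chr5:118164648-118189478, plus strand), had 246 counts in TAM and none in M0, at least 76-fold higher against a floor of 3 counts over the M0 group. Emp2, an epithelial membrane protein gene, had 139 and none, at least 42.9-fold higher against the same floor. The rule that named these genes required that the groups not overlap. Cox6a2, a respiratory chain subunit usually made in muscle, had 904 counts against 1, a ratio of 837 (interval 150 to 33115). Soat2, which esterifies cholesterol, had 726 against 2, a ratio of 336 (92.8 to 2782). Akr1b7, an aldo-keto reductase gene, had 1237 against 3, a ratio of 382 (130 to 1855). These intervals cover counting error only. Elfn2 and Trim66 also had 1 to 2 counts in M0, with ratios of 358 (63.8 to 14161) and 202 (55.7 to 1677).

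Further rises started from measurable levels. Cdsn, encoding the adhesion protein corneodesmosin, went from 0.669, 0.563 and 0.671 CPM in M0 to 66.5, 71.7 and 64.2 CPM in TAM, 6.71 ± 0.31 on the log2 scale (SE, adjusted p = 6.72e-08). Atp2a3, a calcium pump of the endoplasmic reticulum, rose by 7.34 ± 0.52, and the adaptor gene Sh2d6 by 7.27 ± 0.37. In absolute level the largest gain was in Sqstm1, the autophagy receptor p62, at 2053, 1226 and 1272 CPM in M0 and 8541, 8288 and 8323 CPM in TAM. The other leading gains in CPM were in mt-Co1, Hspa5, Txnrd1, Hmox1 and Aldh1l2, which are described with their groups.

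The largest falls by the same rule were in genes of several functions. Gamt, which makes creatine (chr10:80258151-80261012, minus strand), was at 45.1, 20.6 and 23.5 CPM in M0 and at 0.732, 0.947 and 0.452 CPM in TAM, a change of −5.38 ± 0.35 (SE, adjusted p = 6.88e-07). Map2k6, a kinase that activates p38, went from 11.7, 14.7 and 15.1 CPM in M0 to 0.418, 0.548 and 0.251 CPM in TAM and changed by −5.07 ± 0.22. Mxd3, a member of the Max-binding network around Myc, went from 74.0, 32.7 and 31.8 CPM in M0 to 1.46, 1.59 and 1.25 CPM in TAM and changed by −5.00 ± 0.34. The rule required no overlap here too. The others among the 12 largest falls were Kbtbd11 (−4.60), Dlk2 (−4.45), Crip1 (−4.35, or −3.58 without M0 replicate 1), the neuronal sodium channel gene Scn1a (−4.19), the glutathione transferase gene Gsta2 (−4.15), the kinase gene Sgk2 (−4.13), the small GTPase gene Rab17 (−4.08), Ccdc13 (−3.99) and Tk1, thymidine kinase (−3.96), as log2 changes. In absolute level the largest losses were in the tubulin gene Tubb5, at 3121, 1957 and 2045 CPM in M0 and 469, 503 and 448 CPM in TAM, and in Scd2, Pmel, Pkm, Eno1 and the elongation factor gene Eef2. Eef2 was at 5042, 3559.6 and 3655 CPM in M0 and 2060.1, 2144 and 2084 CPM in TAM, a change of −0.96 ± 0.12.

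**Figure D2:**
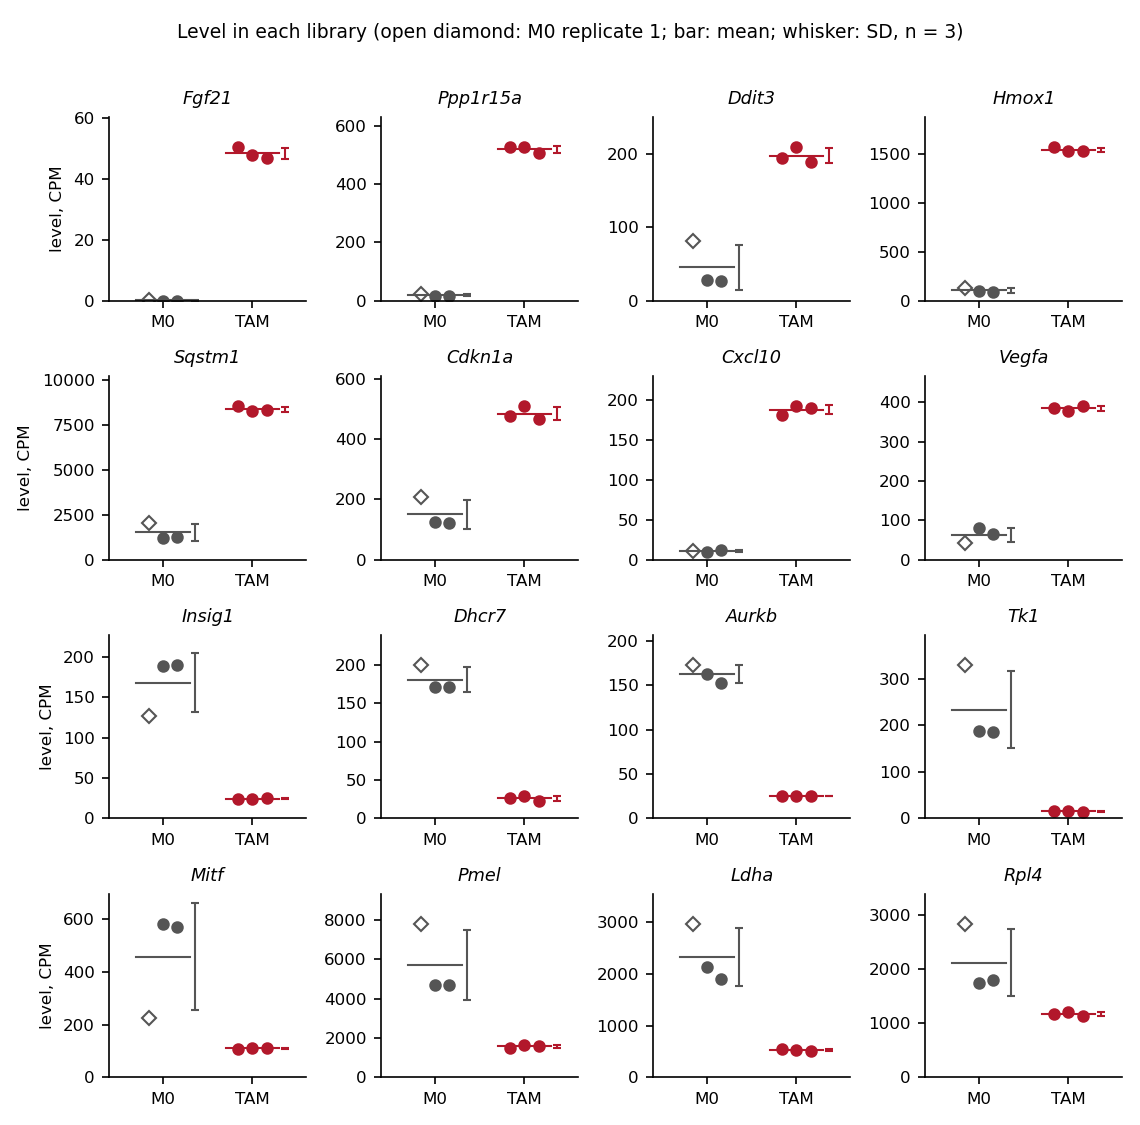
Level in CPM of 16 genes in each M0 library (grey) and each TAM library (red), each panel from 0 with its own scale, with the mean as a bar and the SD of 3 libraries as a whisker. The open diamond is M0 replicate 1, which lies away from the other M0 libraries for genes such as Ddit3, Tk1, Mitf, Pmel and Rpl4. The TAM libraries lie close together and apart from all M0 libraries in all 16 panels. The panels are a selection of named genes, and the groups do not overlap in 58.9% of all tested genes.

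Genes of the integrated stress response rose. Of 21 regulators and targets, all tested, 16 rose and 1 fell, with a median change of 2.50 against −0.02 for all genes and 23.3% of all genes rising. At the head of the pathway, the transcription factor gene Atf4 (chr15:80255184-80257541, plus strand) was at 800.4, 394 and 416 CPM in M0 and 948, 927 and 947 CPM in TAM, a change of 0.81 ± 0.23 (SE, adjusted p = 0.0124). M0 replicate 1 held the high M0 value, and without it the change was 1.21. Of its partners and downstream factors, Cebpg, a C/EBP protein that binds with ATF4, went from 46.6, 44.8 and 52.1 CPM in M0 to 269, 266 and 276 CPM in TAM (2.50 ± 0.09). Ddit3, encoding the death-promoting factor CHOP, went from 81.1, 27.8 and 27.2 CPM in M0 to 195, 209 and 189 CPM in TAM (2.12 ± 0.36, or 2.84 without M0 replicate 1). Atf3, a stress-induced repressor, went from 13.8, 8.26 and 8.77 CPM in M0 to 183, 186 and 181 CPM in TAM (4.16 ± 0.19). For each of these 4 genes all TAM libraries lay above all M0 libraries, as in 29.9% of all tested genes.

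Among the targets with effector roles, Ppp1r15a, the phosphatase subunit that restores translation, had one of the smallest adjusted p of the list, 1.33e-08, and went from 21.8, 16.4 and 15.96 CPM in M0 to 526, 526 and 507 CPM in TAM. The secreted factor gene Gdf15, which signals to the brainstem and limits appetite, went from 0.446, 0.250 and 0.144 CPM in M0 to 32.9, 36.6 and 35.3 CPM in TAM, a change of 6.96 ± 0.44. Vldlr, a lipoprotein receptor, went from 1.11, 1.00 and 1.25 CPM in M0 to 16.2, 15.4 and 15.6 CPM in TAM (3.80 ± 0.17). Nupr1 and Chac1, which were chosen for their promoters, rose by 4.78 ± 0.50 (or 5.70 without M0 replicate 1) and 2.66 ± 0.29. The regulator that went the other way was Eif2ak1, the heme-regulated kinase that phosphorylates eIF2, at 74.8, 70.2 and 70.3 CPM in M0 and 61.1, 58.2 and 57.9 CPM in TAM (−0.28 ± 0.08, adjusted p = 0.0133).

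Genes of amino acid supply rose in the same comparison. Of 20 genes of serine, one-carbon and amino acid synthesis 11 rose and 4 fell (median 0.88), and of 20 amino acid transporters 18 were tested, of which 13 rose and 2 fell (median 0.94), or 13 and 4 without M0 replicate 1. Aldh1l2, the mitochondrial formyltetrahydrofolate dehydrogenase (chr10:83487450-83534140, minus strand), was at 36.6, 107.1 and 132 CPM in M0 and 1569, 1582 and 1574 CPM in TAM, a change of 4.10 ± 0.39 (SE, adjusted p = 8.65e-06). Cth, which makes cysteine from cystathionine, was at 14.4, 11.8 and 13.9 CPM in M0 and 194, 198 and 204 CPM in TAM, a change of 3.89 ± 0.14. Bcat1 and Gpt2, transaminases of branched-chain amino acids and of alanine, both rose by 1.46 (± 0.12 and ± 0.13). Asns, the asparagine synthetase gene whose promoter is shown, rose by 1.26 ± 0.25, and by 1.69 without M0 replicate 1. The members that fell included Glul, glutamine synthetase (168, 162 and 150.3 CPM in M0, 54.1, 61.4 and 58.7 CPM in TAM, −1.46 ± 0.09), and the cytosolic folate enzymes Mthfd1 (−1.20 ± 0.08) and Shmt1 (−0.73 ± 0.09).

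Among the transporters, Slc7a11, the cystine importer (chr3:49892526-50443614, minus strand), was at 53.4, 71.7 and 106 CPM in M0 and 1263, 1109 and 1231 CPM in TAM (3.96 ± 0.34). Its heavy chain partner Slc3a2 went from 448, 241 and 267 CPM in M0 to 1408, 1409 and 1368 CPM in TAM (2.13 ± 0.20). The glycine transporter gene Slc6a9 went from 7.803, 7.13 and 9.68 CPM in M0 to 99.2, 99.2 and 101 CPM in TAM (3.60 ± 0.15). All 3 were higher in every TAM library than in any M0 library, as were 29.9% of all tested genes. The neutral amino acid exchangers Slc1a4 and Slc1a5 rose by 2.17 ± 0.16 and 1.55 ± 0.15, and Slc38a7, a lysosomal glutamine exporter, by 1.07 ± 0.11. Slc36a1, a lysosomal amino acid transporter, and Slc43a1, a transporter of large neutral amino acids, fell by 0.70 ± 0.11 and 0.73 ± 0.15.

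The enzymes that charge tRNAs split. Of 20 cytosolic tRNA synthetases 11 rose and 5 fell (median 0.51). Eprs, for glutamate and proline, was at 361, 516 and 572 CPM in M0 and 1385, 1378 and 1398 CPM in TAM (1.52 ± 0.15). Lars rose by 1.46 ± 0.10, Wars by 1.32 ± 0.11, Nars by 1.21 ± 0.09 and Rars by 1.17 ± 0.13. Mars, Qars and Kars, for methionine, glutamine and lysine, went the other way, at −0.97 ± 0.14, −0.94 ± 0.12 and −0.92 ± 0.15. Of 17 mitochondrial synthetases 3 rose and 8 fell (median −0.36, or −0.19 without M0 replicate 1), with Cars2 at −1.30 ± 0.13 and Nars2 at 0.74 ± 0.17.

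Genes of the endoplasmic reticulum did not move in 1 direction. Of 28 chaperones and degradation genes 27 were tested, of which 10 rose and 9 fell, with a median of 0.21. The majority turned under 1 of the 15 alternative settings and was tied under 2 of them. Ero1l, the oxidase that drives disulfide formation (chr14:45283087-45318771, minus strand), was at 105, 259.9 and 206 CPM in M0 and 1646, 1499 and 1592 CPM in TAM (3.05 ± 0.27, adjusted p = 5.02e-06). Hspa5, encoding the chaperone BiP, was at 1449, 1412 and 1428 CPM in M0 and 3356, 3285 and 3348 CPM in TAM (1.22 ± 0.08). The sensors and regulators Atf6, Herpud1 and Xbp1 rose by 2.02 ± 0.16, 1.55 ± 0.10 and 1.09 ± 0.11. Other folding factors fell, with Sdf2l1 at −1.65 ± 0.20, and the protein disulfide isomerases Pdia4, which went from 533, 603 and 607 CPM in M0 to 259, 258 and 249 CPM in TAM (−1.19 ± 0.09), and Pdia3 (−0.64 ± 0.10). Among 20 tested heat shock proteins of other compartments 6 rose and 5 fell, where 23.3% of all genes rose and 27.2% fell. The mitochondrial chaperone gene Hspa9 rose from 723, 631 and 659.9 CPM in M0 to 2061, 2038 and 2135 CPM in TAM (1.63 ± 0.10), while the cytosolic Hspa8, Hsp90ab1, Dnajb1 and Dnaja1 were at −0.94, −0.86, −0.86 and −0.87 (SE 0.14, 0.10, 0.12 and 0.09). Without M0 replicate 1, 9 of these heat shock genes rose and 10 fell, where 33.0% of all genes rose and 33.7% fell. The majority turned under 7 of the 15 settings and was tied under 4 of them.

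Antioxidant genes under the control of NRF2, a factor that the adaptor KEAP1 marks for degradation, rose in part. Of 24 tested 12 rose and 6 fell (median 0.55). Hmox1, heme oxygenase (chr8:75093621-75100589, plus strand), was at 134, 94.8 and 87.7 CPM in M0 and 1565, 1531 and 1529 CPM in TAM, a change of 3.87 ± 0.17 (SE, adjusted p = 4.35e-08). Txnrd1, thioredoxin reductase, was at 498, 629 and 711 CPM in M0 and 2242, 2162 and 2160.4 CPM in TAM (1.84 ± 0.13). Gclm and Gclc, the subunits of the enzyme that limits glutathione synthesis, rose by 2.03 ± 0.17 and 1.82 ± 0.23. The glutathione transferase gene Gsta4, the pentose phosphate enzyme gene Tkt and Keap1 itself fell, at −2.40 ± 0.27, −1.16 ± 0.17 and −0.58 ± 0.10. The core letters of the antioxidant response element, TGACNNNGC, were in 9 of 19 of these genes with a promoter in the table. They were in 14.0% of all genes there and in 16.9% of tested genes. Other lists varied widely, from 3 of 23 autophagy genes to 6 of 13 amino acid transporters and 6 of 9 genes of the Myc network. The share was thus not particular to this list.

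Metal and iron genes moved in both directions. The metallothionein gene Mt1, whose protein binds zinc and copper, was at 754, 334 and 315 CPM in M0 and 115, 109 and 108 CPM in TAM (−2.07 ± 0.28), and the zinc exporter gene Slc30a1 rose by 1.38 ± 0.22. Of 7 tested metallothionein and zinc genes 3 rose and 2 fell, where 23.3% of all genes rose and 27.2% fell. In the iron list 4 of 16 rose and 3 fell, near those shares. There the metal importer gene Slc39a14 rose from 39.2, 56.1 and 59.1 CPM in M0 to 194, 195 and 194 CPM in TAM (1.92 ± 0.14). The ferrireductase gene Steap3 fell from 87.6, 81.8 and 85.5 CPM in M0 to 28.6, 30.4 and 30.9 CPM in TAM (−1.50 ± 0.08). Without M0 replicate 1, 8 of these iron genes rose and 5 fell, where 33.0% of all genes rose and 33.7% fell.

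Autophagy genes rose more often than they fell, 11 against 3 of 29 tested, and 20 against 5 without M0 replicate 1. Of all genes, 33.0% rose and 33.7% fell without that library. Sqstm1, whose protein carries ubiquitin-marked cargo, changed by 2.47 ± 0.18 (adjusted p = 1.16e-06). Gabarapl1, which coats the autophagosome, went from 141, 74.9 and 75.4 CPM in M0 to 287, 295 and 285 CPM in TAM (1.58 ± 0.22), and the conjugation factor gene Atg12 from 28.4, 28.7 and 28.5 CPM in M0 to 63.5, 63.0 and 63.7 CPM in TAM (1.15 ± 0.08). Bnip3, a mitophagy receptor gene, fell by 1.31 ± 0.32. Map1lc3b fell by 0.42 ± 0.16, and by 0.17 without M0 replicate 1. Of 31 tested lysosomal genes 5 rose and 9 fell, or 12 and 12 without M0 replicate 1, where the same shares of all genes apply. Gusb, beta-glucuronidase, was at 273, 188 and 199 CPM in M0 and 47.9, 53.4 and 49.0 CPM in TAM (−2.13 ± 0.14), and Ctsl, cathepsin L, at 145, 116 and 120.3 CPM in M0 and 460.3, 481 and 474 CPM in TAM (1.89 ± 0.10). The lysosomal transcription factor gene Tfeb fell by 1.94 ± 0.20, while its relative Tfe3 rose by 0.53 ± 0.10.

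Nearly all genes of cholesterol synthesis fell. In the mevalonate arm, from acetyl-CoA to farnesyl pyrophosphate, 8 of 9 genes fell and 1 rose (median −2.28, or −1.90 without M0 replicate 1), and in the sterol arm, from squalene to cholesterol, 12 of 12 fell and 0 rose (median −2.01, or −1.71). At the entry, Acat2, which joins acetyl-CoA units, was at 152, 99.0 and 96.99 CPM in M0 and 8.83, 12.8 and 12.4 CPM in TAM (−3.35 ± 0.21, adjusted p = 4.01e-07). Hmgcs1 was at 88.7, 105 and 106 CPM in M0 and 28.3, 27.2 and 29.6 CPM in TAM (−1.81 ± 0.09). Mvk, Mvd and Idi1, the kinase, decarboxylase and isomerase of the middle steps, changed by −2.28 ± 0.25, −2.65 ± 0.26 and −2.38 ± 0.33. Fdps changed by −3.02 ± 0.23 from 7.41, 6.07 and 6.47 CPM in M0, and has pseudogenes that could share its reads. Ggps1, which leads away from cholesterol toward protein prenylation, was the member that rose (26.2, 37.6 and 38.7 CPM in M0, 47.2, 49.3 and 50.01 CPM in TAM, 0.51 ± 0.15).

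In the sterol arm, Dhcr7, which reduces the sterol ring (chr7:143823145-143848410, plus strand), was at 199, 171 and 172 CPM in M0 and 27.0, 29.2 and 22.99 CPM in TAM (−2.78 ± 0.11, adjusted p = 2.92e-08). Nsdhl and Cyp51, which remove methyl groups from lanosterol, changed by −2.27 ± 0.09 and −2.10 ± 0.09, and Lss and Msmo1 by −1.29 ± 0.08 and −1.33 ± 0.08. Sqle, squalene epoxidase, showed the smallest fall of the arm at −0.47 ± 0.09, and was named for that after its value was seen.

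**Figure D3:**
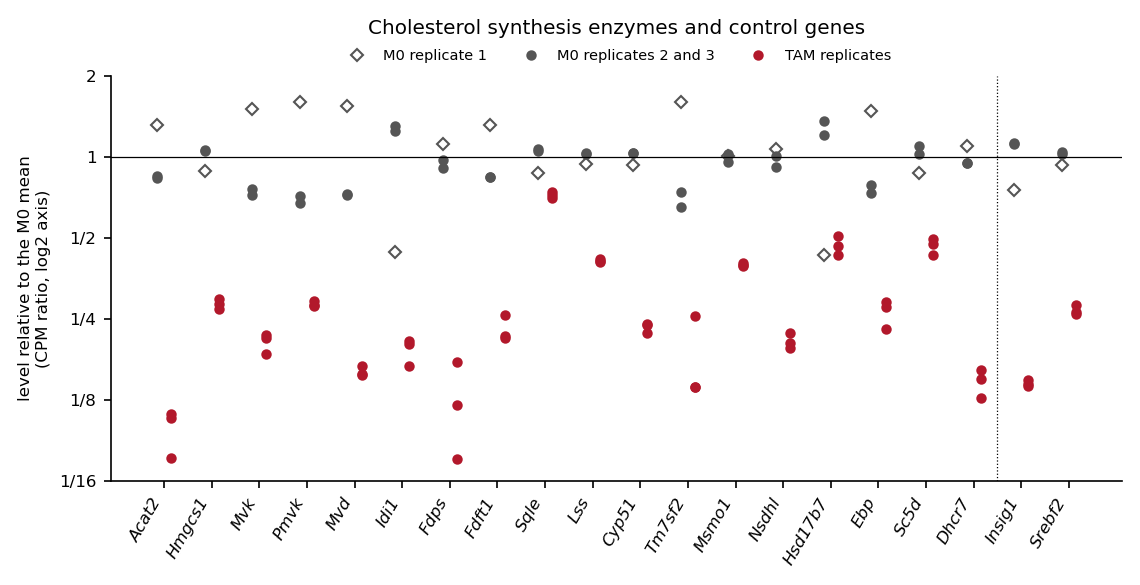
Level of 18 cholesterol synthesis genes in route order and, right of the dotted line, of Insig1 and Srebf2, in each library relative to the M0 mean of the gene (CPM ratio, log2 axis). Grey marks are M0 libraries, the open diamond being replicate 1, and red marks are TAM libraries. The TAM libraries lie below the M0 libraries for all genes shown but Hsd17b7, where M0 replicate 1 lies among them. Not every member of the lists is shown, and Ggps1, which rose, is left out.

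Control of the route and sterol traffic moved with it. Of 18 genes 15 were tested, of which 10 fell and 1 rose (median −0.96). Srebf2, the gene of the SREBP factor most tied to cholesterol, was at 313, 343 and 349 CPM in M0 and 88.7, 94.0 and 87.6 CPM in TAM (−1.90 ± 0.09). Srebf1, whose products act more on fatty acids, was at 227, 185 and 186 CPM in M0 and 53.4, 55.2 and 55.9 CPM in TAM (−1.86 ± 0.10). Scap, their escort, fell by 0.99 ± 0.10. Insig1, which retains SCAP in the endoplasmic reticulum and is itself an SREBP target, was at 126, 188 and 189 CPM in M0 and 23.7, 23.9 and 24.9 CPM in TAM (−2.80 ± 0.16). Stard4, which carries cholesterol between membranes, was at 29.0, 58.4 and 58.7 CPM in M0 and 6.90, 5.68 and 8.13 CPM in TAM (−2.82 ± 0.25). For these 5 genes no TAM library reached any M0 library, as in 29.0% of all tested genes. Soat1, which stores cholesterol as esters, rose from 63.3, 109 and 105 CPM in M0 to 224, 210.0 and 222 CPM in TAM (1.24 ± 0.17).

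Of 16 fatty acid synthesis genes 13 fell and 1 rose (median −1.14). Scd2, a desaturase that makes monounsaturated fat, was at 2111, 3409.8 and 3401 CPM in M0 and 733, 729.9 and 719 CPM in TAM (−2.03 ± 0.16). Its relative Scd1 changed by −1.58 ± 0.16, fatty acid synthase Fasn by −1.37 ± 0.12, the desaturase Fads2 by −1.29 ± 0.09 and the elongase Elovl5 by −1.17 ± 0.11. Mid1ip1, an activator of acetyl-CoA carboxylase, was the member that rose, by 0.84 ± 0.15.

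Proliferation genes fell. Of 41 DNA replication genes 40 fell and 0 rose (median −1.20), and of 40 mitotic genes 35 fell and 0 rose (median −1.14), against 27.2% of all genes falling. Without M0 replicate 1 the counts were 41 and 39 lower and 0 and 1 higher. Cdc6 and Gmnn, which license origins and block their relicensing, changed by −1.66 ± 0.09 and −2.02 ± 0.12. The helicase gene Mcm6 (chr1:128331590-128359664, minus strand) was at 535, 494 and 497 CPM in M0 and 113, 115 and 114 CPM in TAM (−2.16 ± 0.08). Mcm3, of the same helicase, was at 514, 445 and 457 CPM in M0 and 168, 185 and 171 CPM in TAM (−1.43 ± 0.09). Lig1, which joins Okazaki fragments, was at 351, 259 and 252 CPM in M0 and 46.6, 48.6 and 48.1 CPM in TAM (−2.59 ± 0.13), and the chromatin assembly gene Chaf1a at 206, 207 and 204 CPM in M0 and 53.7, 58.7 and 52.8 CPM in TAM. Orc1 and Rfc3, chosen for their promoters, changed by −1.53 ± 0.12 and −1.77 ± 0.15.

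In mitosis, Aurkb, the kinase of the chromosomal passenger complex (chr11:69045647-69051664, plus strand), was at 173, 163 and 153 CPM in M0 and 25.1, 25.6 and 25.1 CPM in TAM (−2.69 ± 0.09, adjusted p = 1.18e-08). Its scaffold Incenp changed by −1.78 ± 0.09. Plk1, cyclin B2 (Ccnb2), the phosphatase gene Cdc25b and the condensin gene Ncapd2 changed by −2.23 ± 0.10, −2.06 ± 0.10, −1.63 ± 0.09 and −1.86 ± 0.08. The genes chosen for the TTTGAA letters of their promoters fell too, with Cdk1 at −1.16 ± 0.11, Cdc20 at −1.04 ± 0.12, Ube2c at −0.87 ± 0.15 and Kif11 at −0.66 ± 0.24 (or −0.96 without M0 replicate 1).

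Genes of the G1 list moved in both directions. Of 29 genes 28 were tested, of which 14 fell and 6 rose, the latter near the background of 23.3%. The S-phase kinase gene Cdk2 was at 511, 643 and 623 CPM in M0 and 134, 136 and 133 CPM in TAM (−2.14 ± 0.10), its cyclin Ccne1 at 111, 80.4 and 81.1 CPM in M0 and 38.04, 35.7 and 36.1 CPM in TAM (−1.31 ± 0.12). The factors E2f1, E2f2 and E2f8 changed by −1.87 ± 0.13, −1.32 ± 0.09 and −2.35 ± 0.20, and the CDK4 and CDK6 inhibitor gene Cdkn2c by −1.73 ± 0.12. The D cyclins Ccnd2 and Ccnd1 rose, Ccnd2 from 271, 556 and 559 CPM in M0 to 1134, 1174 and 1118 CPM in TAM (1.31 ± 0.22) and Ccnd1 by 0.59 ± 0.14. Cdkn1a, the CDK inhibitor p21 (chr17:29090976-29100727, plus strand), was at 207, 124 and 120.3 CPM in M0 and 475, 509 and 468 CPM in TAM (1.69 ± 0.18, adjusted p = 2.24e-05).

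Nucleotide synthesis and DNA repair genes fell with replication. Of 24 nucleotide genes 19 fell and 1 rose, and of 27 repair and checkpoint genes 19 fell and 1 rose. Tk1, which salvages thymidine in S phase (chr11:117815526-117826092, minus strand), was at 329, 188 and 185 CPM in M0 and 15.1, 15.1 and 14.9 CPM in TAM. Rrm1, the large subunit of ribonucleotide reductase, changed by −1.44 ± 0.08, Dut by −1.71 ± 0.13 and Tyms by −1.68 ± 0.15, while Ctps, which makes cytidine nucleotides, rose by 0.27 ± 0.08. Rad54l and Eme1, of homologous recombination, changed by −2.07 ± 0.09 and −2.11 ± 0.15, and Parp1 by −0.95 ± 0.08. The checkpoint kinase gene Atr rose by 1.03 ± 0.29, and by 0.67 without M0 replicate 1, its lowest library.

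Targets of p53, the tumour suppressor that arrests stressed cells, rose. Of 27 targets 23 were tested, of which 18 rose and 3 fell (median 1.25). Trp53 itself was at 211, 159 and 156 CPM in M0 and 224, 228 and 209.6 CPM in TAM (0.33 ± 0.12, adjusted p = 0.0363), with M0 replicate 1 inside the TAM range. Gadd45a, a growth arrest gene (chr6:67035096-67037457, minus strand), was at 6.08, 2.88 and 3.59 CPM in M0 and 168, 164 and 163 CPM in TAM (5.30 ± 0.26). The kinase gene Plk2 was at 4.51, 8.07 and 6.76 CPM in M0 and 79.6, 79.9 and 80.6 CPM in TAM (3.64 ± 0.18). The antiproliferative gene Btg2 and Mdm2, whose product degrades p53, rose by 2.85 ± 0.14 and 2.03 ± 0.15, and Ier5 and the nuclease gene Aen by 1.95 ± 0.13 and 1.14 ± 0.10. The targets that fell were Sesn1 (−1.25 ± 0.13), the caspase-2 scaffold Pidd1 (−1.17 ± 0.15) and Ei24 (−0.45 ± 0.09). Gadd45a is also known as a gene of the integrated stress response.

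Of 33 cell death genes 29 were tested, of which 12 rose and 8 fell (median 0.24). Besides Hrk, the TWEAK receptor gene Tnfrsf12a rose from 69.2, 35.7 and 37.6 CPM in M0 to 386, 392 and 359 CPM in TAM (3.00 ± 0.23), the inflammatory caspase gene Casp4 from 1.00, 0.438 and 0.479 CPM in M0 to 5.59, 6.53 and 5.82 CPM in TAM (3.21 ± 0.24) and the BH3-only gene Bid by 1.16 ± 0.09. The apoptotic caspase gene Casp6 fell by 2.10 ± 0.13, and the initiator Casp8 fell by 0.51 ± 0.09.

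Of 23 genes around mTORC1, the kinase complex that couples amino acids to growth, 5 were higher and 5 lower, or 8 and 7 without M0 replicate 1. Of all genes, 23.3% were higher and 27.2% lower, or 33.0% and 33.7% without that library, so this list was near the background. The inhibitors Sesn2 and Ddit4 rose, Sesn2 from 52.2, 33.5 and 34.8 CPM in M0 to 184, 193 and 176 CPM in TAM (2.20 ± 0.16) and Ddit4 by 1.76 ± 0.13. Castor2, Depdc5 and Eif4ebp2, also on the inhibiting side of the pathway, changed by −1.64 ± 0.10, −1.09 ± 0.09 and −1.04 ± 0.11.

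Ribosome biogenesis genes rose more often than they fell, 13 against 4 of 29 (median 0.31). The nucleolar genes Nop58, Wdr43 and Gnl3 rose by 1.27 ± 0.09, 1.11 ± 0.12 and 0.77 ± 0.08, the RNA polymerase I gene Polr1a by 0.75 ± 0.10, and nucleolin, Ncl, went from 1651, 1573 and 1599 CPM in M0 to 2372, 2373 and 2465 CPM in TAM. Bop1 went the other way, from 346, 198 and 208 CPM in M0 to 100.1, 106 and 92.9 CPM in TAM (−1.33 ± 0.18). Myc, which drives this programme in many tumours, was at 55.2, 64.7 and 67.6 CPM in M0 and 189.9, 204 and 197 CPM in TAM (1.66 ± 0.10). In its network of 10 tested genes 6 rose, among them Mxi1 (1.62 ± 0.14) and Mnt (1.29 ± 0.10), and 2 fell, Mxd3 and Mlx (−0.82 ± 0.09). Non-coding hosts of small nucleolar RNAs, whose spliced transcripts are degraded when translated, rose in 8 of 12 tested genes and fell in 1. Snhg12, Snhg1 and Zfas1 were higher by 2.33 ± 0.14, 2.19 ± 0.18 and 2.18 ± 0.22.

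The cytosolic ribosomal protein genes themselves depended on M0 replicate 1. With all libraries 19 of 79 tested genes were lower and 1 higher (median −0.43), and without that library, in which these genes took 7.78% of the counts, 24 were lower and 28 higher (median 0.04). Without it 33.7% of all genes were lower and 33.0% higher. Rpl4 was at 2824, 1732 and 1788 CPM in M0 and 1166, 1208 and 1129.7 CPM in TAM (−0.86 ± 0.16, or −0.60 without replicate 1). Rpl7l1 was the member that rose with all libraries, by 0.55 ± 0.13.

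**Figure D4:**
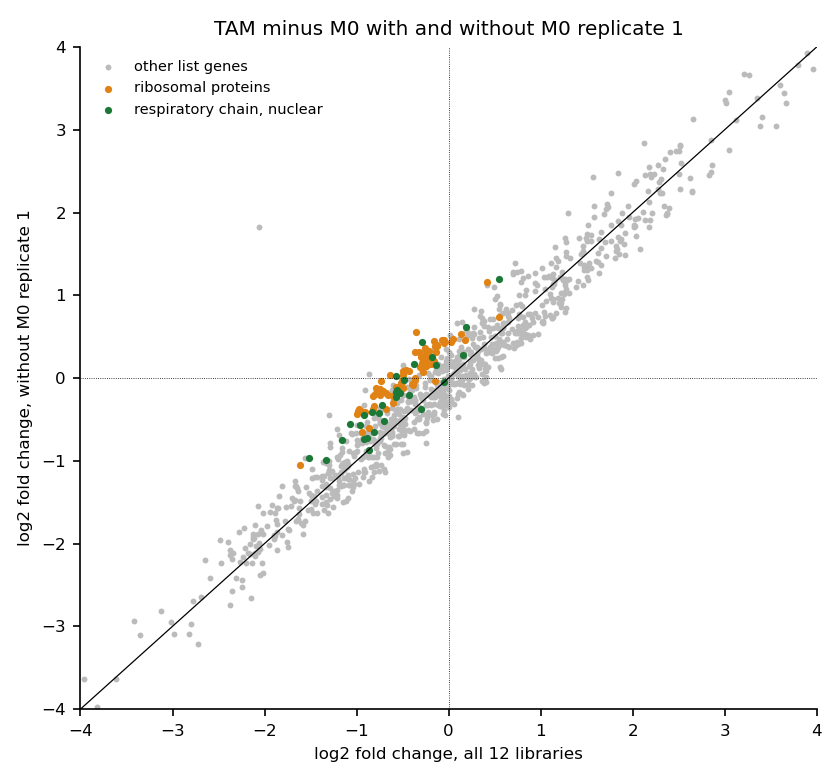
Log2 fold change of TAM over M0 for 1065 genes of the lists, with all 12 libraries on the horizontal axis and without M0 replicate 1 on the vertical axis, where the diagonal marks equal values and 29 genes lie outside the axes. Ribosomal protein genes (orange) and nuclear respiratory chain genes (green) lie mostly above the diagonal. The median of the ribosomal protein genes is −0.43 on the horizontal and 0.04 on the vertical axis.

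Glycolysis genes fell. Of 25 genes of glucose uptake, glycolysis and lactate export 19 fell and 3 rose (median −1.17). Along the route, the phosphofructokinase genes Pfkm and Pfkp changed by −1.97 ± 0.14 and −1.13 ± 0.09, and the aldolase gene Aldoc went from 45.0, 26.6 and 24.8 CPM in M0 to 4.44, 3.54 and 3.06 CPM in TAM (−3.12 ± 0.23). Eno1 was at 7293, 4364 and 4094 CPM in M0 and 2115, 2193 and 2076 CPM in TAM (−1.30 ± 0.18), and pyruvate kinase, Pkm, at 5564, 3493 and 3350.4 CPM in M0 and 1318, 1374 and 1289.8 CPM in TAM (−1.64 ± 0.17). Ldha, lactate dehydrogenase, was at 2966, 2132 and 1898 CPM in M0 and 545, 539 and 517 CPM in TAM (−2.13 ± 0.16). M0 replicate 1 held the highest value of the 6 libraries in 17 of the 25 genes, and without it the changes of Pkm and Ldha were −1.37 and −1.92. The members that rose were the neuronal enolase Eno2, from 29.9, 19.4 and 19.3 CPM in M0 to 128, 132 and 129 CPM in TAM (2.50 ± 0.17), the regulator Pfkfb3 (1.55 ± 0.18) and the glucose transporter Slc2a3 (1.31 ± 0.10).

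Genes induced by hypoxia fell more often than they rose, 8 against 4 of 14 tested. Adm, Egln3 and Ankrd37 changed by −2.31 ± 0.27, −2.18 ± 0.32 and −2.37 ± 0.45, and the oxygen sensor gene Egln1 went from 77.1, 85.0 and 72.5 CPM in M0 to 25.7, 25.4 and 25 CPM in TAM (−1.63 ± 0.12). Vegfa, the main growth factor of blood vessels (chr17:46016993-46032369, minus strand), rose from 43.2, 80.6 and 63.8 CPM in M0 to 386, 377 and 389.5 CPM in TAM (2.62 ± 0.19, adjusted p = 1.24e-06), and Ndrg1 and P4ha1 rose by 1.05 ± 0.09 and 0.39 ± 0.10.

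Of 30 nuclear genes of the respiratory chain 19 fell and 0 rose, and without M0 replicate 1 20 fell and 7 rose (median −0.57 and −0.28). Sdha, of complex II, was at 350.2, 339 and 354 CPM in M0 and 189, 194 and 188 CPM in TAM (−0.87 ± 0.08 with all libraries and −0.87 without replicate 1). Atp5a1 and Cox5a changed by −0.89 ± 0.12 and −1.33 ± 0.21. Of 12 tested mitochondrially encoded genes 2 rose and 2 fell, or 2 and 4 without M0 replicate 1. Of all genes, 23.3% rose and 27.2% fell, or 33.0% and 33.7% without that library. mt-Co1 was at 6518, 10053 and 9979 CPM in M0 and 13191, 12018 and 13233 CPM in TAM (0.53 ± 0.14), while mt-Nd1 went from 3828, 3475 and 3470.5 CPM in M0 to 2065, 1966 and 2151 CPM in TAM (−0.80 ± 0.09).

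Melanocyte genes fell. Of 12 lineage factors and receptors 9 were tested, of which 6 fell and 2 rose, and of 19 pigment enzymes and melanosome proteins 14 fell and 0 rose (median −0.83). Mitf, the factor that controls melanocyte identity (chr6:97807052-98021349, plus strand), was at 223, 580.4 and 568 CPM in M0 and 108, 113 and 110.0 CPM in TAM (−2.05 ± 0.29, adjusted p = 0.000177). All TAM libraries lay below all M0 libraries, as in 29.0% of all tested genes, although M0 replicate 1 lay far below the other 2. The change was −2.38 without that replicate. Sox10, which activates Mitf, was at 749, 554 and 533 CPM in M0 and 326, 328 and 317 CPM in TAM (−0.92 ± 0.12). Mc1r, the melanocortin receptor, was at 218, 162 and 161 CPM in M0 and 31.5, 37.9 and 36.8 CPM in TAM (−2.35 ± 0.13). Tbx2 and Tfap2a fell by 1.37 ± 0.14 and 0.47 ± 0.08, whereas Pax3 and Sox6 rose by 1.19 ± 0.17 and 1.03 ± 0.28.

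Among the pigment genes, Pmel, the fibril protein of the melanosome (chr10:128704195-128720238, plus strand), was at 7782, 4681 and 4687 CPM in M0 and 1508, 1658 and 1583 CPM in TAM (−1.85 ± 0.17, or −1.57 without M0 replicate 1). The transporters Slc45a2 and Oca2 changed by −1.48 ± 0.08 and −2.24 ± 0.17. Tyr, tyrosinase, was at 377, 629 and 614 CPM in M0 and 284, 286 and 284 CPM in TAM (−0.92 ± 0.16), and Mlana at 1991, 977 and 956 CPM in M0 and 397, 427 and 406 CPM in TAM (−1.67 ± 0.24). The melanosome carrier gene Rab27a changed by −0.83 ± 0.11. Of 8 melanocyte markers 6 fell, where 27.2% of all genes fell, and 2, Dct and Tyrp1, did not pass the test. The summed level of the 8, without TMM scaling, was 21034, 20999 and 20809.5 CPM in the M0 libraries and 14634, 15471 and 14974 CPM in the TAM libraries. The cells thus still carried the markers of their line in every library.

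Genes of dedifferentiated melanoma were mixed. Of 14 genes 10 were tested, of which 4 rose and 2 fell, or 4 and 4 without M0 replicate 1. Ngfr, a neural crest receptor, was at 1.73, 1.25 and 2.59 CPM in M0 and 31.7, 33.4 and 35.0 CPM in TAM (4.14 ± 0.22). The receptor kinase Axl rose from 19.9, 19.5 and 25.2 CPM in M0 to 105, 109 and 106 CPM in TAM (2.30 ± 0.12), while its relatives Tyro3 and Mertk fell by 0.74 ± 0.17 and 1.35 ± 0.26. The intermediate filament gene Nes rose by 1.12 ± 0.11. Vim, another intermediate filament gene, fell from 1696, 1442 and 1464 CPM in M0 to 573, 626 and 577 CPM in TAM (−1.37 ± 0.09). Of the cadherins and their repressors, Cdh1 fell by 2.98 ± 0.44 from under 2 CPM, Snai2 rose by 1.02 ± 0.24, and Zeb1 had 66 counts in TAM against 1 in M0, a ratio of 61.1 (interval 10.60 to 2451). Zeb2 was at 53.9, 240.1 and 242 CPM in M0 and 258, 259.6 and 275 CPM in TAM and did not pass the test (adjusted p = 0.259), but did without M0 replicate 1 (0.13, adjusted p = 0.00836).

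Matrix, integrin and protease genes moved in both directions. Of 18 tested matrix genes 6 rose and 5 fell, of 14 integrins 5 and 3, and of 21 proteases and inhibitors 9 and 8. Without M0 replicate 1 these counts were 7 and 10, 5 and 5, and 8 and 11, where 33.0% of all genes rose and 33.7% fell. Fn1, fibronectin, rose from 45.6, 92.8 and 97.6 CPM in M0 to 553, 597 and 568 CPM in TAM (2.86 ± 0.24), while the basement membrane collagens Col4a1 and Col4a2 fell by 0.98 ± 0.15 and 0.62 ± 0.10. Itga5, the alpha chain of the fibronectin receptor, rose by 0.94 ± 0.12, Itga3 and Itga7, which bind laminin, by 3.35 ± 0.40 and 3.47 ± 0.34 (Itga7 by 4.20 without M0 replicate 1), and Itgb3 fell by 1.21 ± 0.15. The urokinase receptor gene Plaur rose by 1.49 ± 0.15 and Timp3, which inhibits metalloproteases, from 10.53, 30.1 and 33.9 CPM in M0 to 169.8, 183 and 177 CPM in TAM. Plat, tissue plasminogen activator, Mmp17 and Timp2 fell by 1.74 ± 0.23, 2.20 ± 0.28 and 0.70 ± 0.11.

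Immediate early and signal feedback genes rose. Of 25 AP-1 and immediate early genes 21 were tested, of which 13 rose and 3 fell (median 0.94). Jun was at 37.5, 40.6 and 38.05 CPM in M0 and 155, 147 and 151 CPM in TAM (1.96 ± 0.09), and Junb and Fosl2, its partners in AP-1, rose by 2.41 ± 0.20 and 2.06 ± 0.15. Zfp36, which destabilises cytokine messages, rose by 2.53 ± 0.11. Of 13 Kruppel-like factors 9 rose and 0 fell, with Klf4 at 1.17, 2.19 and 2.20 CPM in M0 and 18.6, 19.8 and 20.8 CPM in TAM (3.41 ± 0.20), Klf9 at 2.65 ± 0.33 and Klf6 at 2.21 ± 0.18. Of 24 genes of ERK and stress kinase feedback 12 rose and 3 fell. The ERK phosphatase gene Dusp6 went from 23.7, 39.2 and 39.0 CPM in M0 to 118, 126 and 126 CPM in TAM (1.86 ± 0.17), and the stress kinase phosphatase genes Dusp8 and Dusp1 rose by 2.29 ± 0.11 and 1.43 ± 0.13. The p38 kinase gene Mapk11 fell by 2.10 ± 0.23, beside its activator Map2k6.

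Targets of TGF-beta and of YAP rose in part. Of 27 genes of TGF-beta and BMP signalling 21 were tested, of which 12 rose and 3 fell (median 0.59), or 13 and 5 without M0 replicate 1 (median 0.39). The BMP target Id1, which blocks differentiation factors, went from 3.29, 1.13 and 2.06 CPM in M0 to 20.3, 19.6 and 22.8 CPM in TAM (3.26 ± 0.28). Its relative Id3 went from 26.9, 15.3 and 16.9 CPM in M0 to 106, 107.4 and 126 CPM in TAM (2.52 ± 0.19). The inhibitor Smad7 rose by 2.14 ± 0.22, and the decoy receptor Bambi fell by 1.55 ± 0.17. Tgfbr2, the ligand-binding receptor, fell by 0.66 ± 0.19, with M0 replicate 1 among the TAM values, and by 0.90 without it. Of 17 tested YAP and TAZ targets 12 rose and 0 fell (median 1.28), and without M0 replicate 1 14 rose and 1 fell (median 0.85). The lowest member, at −4.36, did not pass the test with all libraries. Ccn1, a matricellular growth factor (chr3:145646976-145649981, minus strand), was at 17.7, 10.7 and 13.8 CPM in M0 and 408, 368 and 372 CPM in TAM (4.77 ± 0.20, adjusted p = 3.9e-08). Ajuba, Lats2 and Wwtr1, which encodes TAZ itself, rose by 2.11 ± 0.10, 1.77 ± 0.12 and 1.60 ± 0.14. Among 6 tested genes of ErbB receptors and their ligands, Hbegf rose by 1.06 ± 0.14, Nrg2 fell by 0.78 ± 0.26, and Erbb3, at 54.1, 99.8 and 106 CPM in M0 and 82.7, 83.8 and 87.5 CPM in TAM, did not pass (adjusted p = 0.899, or 6.72e-06 without M0 replicate 1, at a change of −0.29).

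Among the tested genes of secreted signals, rises outnumbered falls. Of 39 cytokine, chemokine and growth factor genes 24 were abundant enough to be tested, and 15 rose and 4 fell (median 1.49). Some of them passed the filter only through the TAM libraries, so for these a rise was built in. Others may have been tested only through M1, where the list summed to 2993.6 to 3075.1 CPM without TMM scaling. Neither the count of rises nor the median therefore describes the whole list. Lif, an IL-6 family cytokine (chr11:4257557-4272514, plus strand), was at 0.390, 0.125 and 0.240 CPM in M0 and 19.7, 19.4 and 21.9 CPM in TAM (6.28 ± 0.35, adjusted p = 1.96e-07). Cxcl10, a chemokine that draws T cells (chr5:92346638-92348889, minus strand), was at 10.53, 9.58 and 11.4 CPM in M0 and 182, 192 and 191 CPM in TAM (4.16 ± 0.11, adjusted p = 5.71e-09). Ccl5, another chemokine for T cells and monocytes, was at 2.84, 0.939 and 1.77 CPM in M0 and 15.7, 14.4 and 16.6 CPM in TAM (3.05 ± 0.27). For all 3 the lowest TAM library was above the highest M0 library, as in 29.9% of all tested genes. Csf1, the growth factor of macrophages, rose from 16.2, 21.3 and 21.9 CPM in M0 to 52.6, 57.5 and 54.3 CPM in TAM (1.47 ± 0.12). Angptl2 fell from 147, 148 and 157 CPM in M0 to 36, 36.5 and 36.9 CPM in TAM (−2.05 ± 0.08), Vegfb from 126, 70.3 and 65.8 CPM in M0 to 28.2, 28.4 and 25.9 CPM in TAM (−1.67 ± 0.21) and Il15, at under 2 CPM in every library, by 1.95 ± 0.39.

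**Figure D5:**
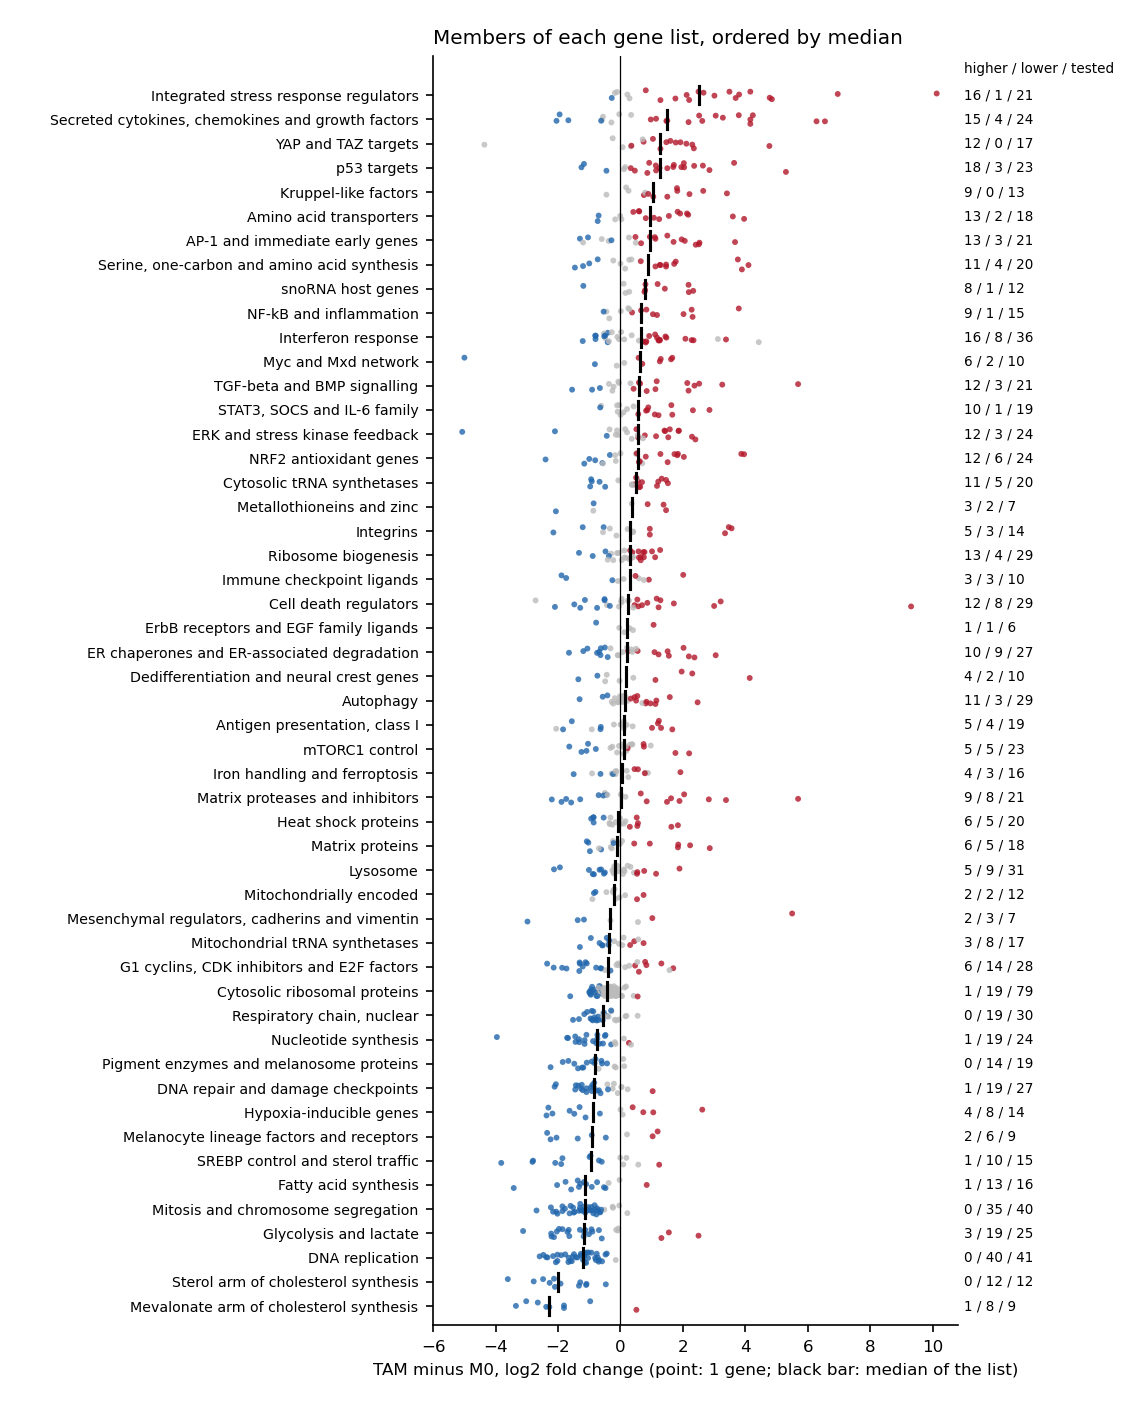
Log2 fold change of TAM over M0 for the tested members of each gene list with at least 6 tested members, 1 point per gene, red where higher, blue where lower and grey where the test was not passed, with the list median as a black bar. The numbers at the right count higher, lower and tested members. Medians run from −2.28 for the mevalonate arm to 2.50 for the integrated stress response, against −0.02 for all genes. The lists were chosen with earlier results of these data known.

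Genes of inflammatory pathways rose in part. Of 20 NF-kB and inflammation genes 15 were tested, of which 9 rose and 1 fell (median 0.66). Tnfaip2 was at 72.4, 55.1 and 63.4 CPM in M0 and 315, 324 and 309 CPM in TAM (2.31 ± 0.14), the non-canonical subunit genes Relb and Nfkb2 rose by 2.02 ± 0.21 and 1.04 ± 0.13, and the inhibitor Nfkbia by 0.66 ± 0.12. In the STAT3 and IL-6 family list 10 of 19 rose and 1 fell, or 11 and 3 without M0 replicate 1. There Il6ra, Osmr and the kinase gene Pim3 rose by 2.85 ± 0.44, 1.63 ± 0.30 and 1.66 ± 0.12, and Stat5a fell by 0.65 ± 0.14.

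Of 36 interferon response genes 16 rose and 8 fell (median 0.65), against 23.3% and 27.2% of all genes. Their summed level, without TMM scaling, was 225, 239 and 243 CPM in M0 and 279, 275 and 276 CPM in TAM. In the M1 libraries it was 21156.8 to 22200.8 CPM. The filter used all 12 libraries, so members may have been tested only through M1. Ifit1, an antiviral effector of a family of similar genes, was at 1.84, 2.94 and 3.83 CPM in M0 and 14.8, 14.4 and 14.7 CPM in TAM (2.34 ± 0.20). Isg15, a ubiquitin-like protein, was at 4.24, 1.94 and 2.83 CPM in M0 and 15.99, 15.1 and 12.8 CPM in TAM (2.28 ± 0.24). The RNA sensor gene Ddx58 and Rsad2 rose by 1.22 ± 0.16 and 1.26 ± 0.13. Bst2, Trim21 and Mx1 fell by 1.21 ± 0.30 (or 0.62 without M0 replicate 1), 0.81 ± 0.18 and 0.80 ± 0.19. Of 19 tested class I presentation genes 5 rose and 4 fell, or 11 and 4 without M0 replicate 1, and the numbers were tied under 6 of the 15 settings. Without that replicate 33.0% of all genes rose and 33.7% fell. The transactivator gene Nlrc5 rose from 0.334, 0.814 and 0.719 CPM in M0 to 2.19, 1.69 and 2.06 CPM in TAM (1.66 ± 0.24). B2m, the class I light chain, was at 201, 160.0 and 159.8 CPM in M0 and 190.3, 188 and 186 CPM in TAM and did not pass with all libraries (adjusted p = 0.355), but did without replicate 1 (higher by 0.23, adjusted p = 3.14e-06). Among 10 tested checkpoint ligands 3 rose and 3 fell, near the shares of all genes, and the numbers were also tied under 8 of the 15 settings. Pvr, a ligand of the inhibitory receptor TIGIT, rose from 32.6, 50.01 and 44.0 CPM in M0 to 169.8, 169 and 171 CPM in TAM (2.01 ± 0.13), Cd274, which encodes PD-L1, from 2.34, 5.01 and 3.12 CPM in M0 to 7.73, 5.73 and 6.12 CPM in TAM (0.91 ± 0.22), and Lgals9, galectin-9, fell from 25.2, 15.02 and 16 CPM in M0 to 5.12, 5.38 and 4.62 CPM in TAM (−1.89 ± 0.18).

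Markers of other cell types were looked for. Of 23 macrophage markers 11 had no count in any of the 6 libraries, among them Ptprc, Itgam, Adgre1, Tyrobp, C1qa, C1qb and C1qc, and 4 were tested, of which 3 fell and 0 rose. The summed level of all 23, without TMM scaling, was 8.13, 6.22 and 5.27 CPM in the M0 libraries and 4.76, 3.88 and 4.88 CPM in the TAM libraries. Among markers too low to test, Fcgr1 had 0 counts over the M0 group and 13 over the TAM group. Cx3cr1 had 0 and 7, Csf1r 0 and 4, Fcgr3 3 and 9, and Cd14 and Mrc1 0 and 1 each. Laptm5 had 14 and 9, and Spi1 11 and 11, so these low markers did not share the fall. Cd68 was at 3.68, 2.94 and 2.40 CPM in M0 and 2.04, 1.20 and 1.30 CPM in TAM (−0.99 ± 0.24), and Lyz2, an abundant message of macrophages, at 1.34, 0.939 and 0.527 CPM in M0 and 0.941, 1.10 and 1.16 CPM in TAM (adjusted p = 0.625). Of 10 neutrophil and 12 lymphocyte markers 0 and 1 were tested, and the one tested, Cd79a, did not pass (adjusted p = 0.239). Of 12 fibroblast and endothelial markers 4 had no count in the 6 libraries and 3 of 4 tested rose, Col1a1 by 2.23 ± 0.22, Vwf by 1.87 ± 0.27 and Pdgfrb by 0.47 ± 0.14. Their sum was 20.5, 22.9 and 26.6 CPM in the M0 libraries and 40.9, 42.9 and 40.5 CPM in the TAM libraries. The part of these markers in the changes of matrix genes was not tested.

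For 10 genes picked from those that changed against M0, TAM was also compared with the M2 group, which shares no library with M0. In TAM minus M2 the log2 changes were 4.24 for Atf3, 5.08 for Ppp1r15a, 3.94 for Hmox1, 3.52 for Slc7a11 and 4.35 for Cxcl10. They were −2.96 for Insig1, −2.75 for Dhcr7, −3.64 for Tk1, −2.60 for Aurkb and −2.31 for Mitf. All 10 adjusted p in that contrast lay at or under 8.83e-05. Both contrasts share the TAM libraries, and the genes were picked with their changes against M0 known. The M2 libraries also resembled M0 replicates 2 and 3, at r of 0.992 to 0.993. These values are therefore not independent of those against M0 and are no test of them.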

How the data were processed

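RNA of B16F10 cells was extracted with Trizol and made into Illumina mRNA libraries, per the labels' protocols. HISAT2 2.0 and the mm10 genome are named in the submitters' processing notes. The counter, its annotation and its use of strand were not given in the sources used here. A gene and its antisense partner therefore cannot be told apart. The deposited table holds counts per gene, with no normalization by the authors, for 55487 identifiers and 12 libraries of 15916756 to 20863973 counts. Of the identifiers 55227 were found in GENCODE M21, which gave the gene coordinates (mm10).

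Here the counts were filtered with filterByExpr by group, scaled by TMM and fitted with edgeR 4.0.16 in R 4.3.3 (robust quasi-likelihood test) over all 12 libraries, with Benjamini-Hochberg adjustment over 14591 genes at 0.05. The TAM minus M0 contrast was the main result, and the fit was repeated without M0 replicate 1. Alternatives were RLE and upper-quartile scaling, no filter, DESeq2 1.42.0, limma-voom (limma 3.58.1), only the 6 libraries, a replicate block and each of the 6 libraries left out. Another 2 were added after seeing the data. The script was tested on simulated data. Genes with at most 3 counts in a group are given as ratios of counts with 95% exact binomial intervals, or, where a group is at 0, as lower bounds from a floor of 3 counts for that whole group. Intervals and floors cover counting error only.

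Genes were named by a rule: the 12 largest rises and falls with a mean of at least 1 CPM, no overlap between groups and no predicted gene; the 6 largest gains and losses in CPM; in each list at most 6 genes of smallest adjusted p, and up to 3 against its majority; and a fixed set of stress, sterol, pigment and marker genes. Asns, Chac1, Nupr1, Orc1, Rfc3, Cdc20, Ube2c, Kif11 and Cdk1 were chosen after their values were seen, for their promoters, and Sqle to complete the sterol route. Some items are not reported here. The members and lists were chosen with earlier results of these data known. Promoter sequences are from RefSeq (GRCm38.p6).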

Additional observations from a re-analysis of the deposited data

How the results depend on the processing

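The number of genes called fell most when only the 6 libraries of M0 and TAM were fitted, to 4619 (2109 higher and 2510 lower), of 13868 tested. That fit estimates the spread with M0 replicate 1 as 1 of 6 libraries and gave a common dispersion of 0.0622, against 0.0324 with all 12. Leaving out each of the 6 libraries in turn gave 6107 to 9983 called, 2810 to 4946 higher and 3297 to 5037 lower, with the highest numbers without M0 replicate 1. With RLE or upper-quartile scaling, no filter, DESeq2 and limma-voom, 6904 to 7903 genes were called. Without M0 replicate 1 DESeq2 called 9531, and the 5 remaining libraries fitted alone gave 10054.

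Whether the replicate numbers pair the samples is not labelled. Deviations of same-numbered M0 and TAM libraries from their group means correlated at −0.019, −0.112 and 0.098 across genes. Those of differently numbered libraries correlated at −0.108 to 0.125. With 3 libraries per group and M0 replicate 1 far from the others, these values cannot exclude a shared preparation. A fit with the replicate block called 7071 genes (3336 higher and 3735 lower), and of the named genes Kif11, Map1lc3b and Trp53 lost the call in it.

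Over the 15 alternatives, 301 named genes gave 4513 values, of which 4452 kept the direction and the side of the threshold, 52 lost the call, 9 gained it and 0 reversed. The precision of genes near 0 in M0 is limited by their counts.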

Other observations

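Genes that rose and genes that fell differed in their annotation. Of the 3398 genes that rose, 353 are long non-coding RNAs in GENCODE M21, against 153 of the 3974 that fell and 1417 of all 14591 tested genes. The share among genes that rose was near that of all tested genes, and the share among genes that fell was below it. With a change of at least 2-fold, long non-coding RNAs were 281 of 1672 genes that rose and 123 of 1774 that fell. The median summed exon length was 4806 bp for the genes that rose, 3652 bp for those that fell and 3950 bp for all tested genes, and 4481 and 3164 bp with a change of at least 2-fold. The count-weighted exon length of M0 replicate 1, 4545 bp, was below that of every other library, and its part in this difference was not tested. The sets also differed in level. The median M0 level was 17.7 CPM for genes that rose, 41.7 for those that fell and 24.1 for all tested genes. With a change of at least 2-fold it was 3.84 and 26.2 CPM. The part of level in the differences of annotation and length was not tested.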
